A study of Homo sapiens with 2 samples.

Results

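ATP-binding cassette (ABC) transporter genes were compared between 2 derivatives of MKN1, a gastric cancer line of human origin in long use. They had received a pBABE-puro retroviral plasmid that carries either wild-type RHOA, a small GTPase of the actin cytoskeleton, or its Y42C mutant, with cysteine in place of a tyrosine, and were selected with puromycin. Both lines were grown at 37 °C in RPMI with 10% fetal bovine serum, and 1 array of total RNA was made for each. The members are all probe sets whose single gene symbol is ABC, then a subfamily letter from A to G, then a number: 39 genes, each with 1 probe set, of 17687 named genes. Some other genes of the family, ABCC1 among them, were not analysed here. Each line is 1 selected population with 1 array, so no difference below has a replicate check, a standard error or a p-value, and the comparison is between these lines. The series holds no parental or empty-vector array, so a level is higher in one line than in the other and no more.

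ABC proteins bind and hydrolyse ATP in paired nucleotide-binding domains. Most use that energy to move a substrate across a membrane. Subfamily A mainly moves lipids. Subfamilies B, C and G hold the drug exporters together with transporters of bile salts, sterols, haem precursors and conjugates. Subfamily D serves peroxisomes and lysosomes, and subfamilies E and F lack membrane spans and act on ribosomes. In epithelial cancers the family is known for drug efflux by ABCB1, ABCC1 and ABCG2, and in most cells for cholesterol export by ABCA1 and ABCG1.

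The promoter sequences below belong to the members that the results turn on: ABCA1 for sterol export, ABCG2 and ABCD4 as the members at least 2-fold apart, and ABCA5 and ABCA6 as members of 1 gene cluster on chromosome 17. They are the 250 bases before the annotated start, from RefSeq (GRCh38.p14), 5′ to 3′ on the minus strand, which carries all 5 genes. Capitals mark the motifs searched on both strands: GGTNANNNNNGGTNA (the direct repeat with 4 spacing bases, DR4, that liver X receptors bind), CACGTG (an E-box), GGGCGG (an Sp1 site), TGACNNNGC (the antioxidant response core), GCGTG (the dioxin response core) and TATAAA (the core promoter box). ABCG2 has 5 entries, and the first of those with most matches is shown. Their positions are chr9:104928156-104928405 for ABCA1, chr4:88158860-88159109 for ABCG2, chr14:74302935-74303184 for ABCD4, chr17:69327134-69327383 for ABCA5 and chr17:69141896-69142145 for ABCA6.
ABCA1: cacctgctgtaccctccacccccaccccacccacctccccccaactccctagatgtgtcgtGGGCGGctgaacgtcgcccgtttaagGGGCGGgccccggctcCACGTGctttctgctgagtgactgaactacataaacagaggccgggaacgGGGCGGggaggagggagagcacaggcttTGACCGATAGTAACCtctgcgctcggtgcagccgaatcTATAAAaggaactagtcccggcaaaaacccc
ABCG2: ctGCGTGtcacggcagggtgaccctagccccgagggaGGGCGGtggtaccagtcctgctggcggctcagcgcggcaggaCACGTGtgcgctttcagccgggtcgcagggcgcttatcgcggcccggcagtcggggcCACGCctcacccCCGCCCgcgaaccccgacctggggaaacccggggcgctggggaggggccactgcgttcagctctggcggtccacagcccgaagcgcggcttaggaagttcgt
ABCD4: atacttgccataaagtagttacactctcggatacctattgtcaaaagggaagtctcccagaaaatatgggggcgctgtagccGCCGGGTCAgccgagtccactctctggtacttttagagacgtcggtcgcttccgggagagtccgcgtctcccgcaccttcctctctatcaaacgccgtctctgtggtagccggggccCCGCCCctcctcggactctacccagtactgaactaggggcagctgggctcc
ABCA5: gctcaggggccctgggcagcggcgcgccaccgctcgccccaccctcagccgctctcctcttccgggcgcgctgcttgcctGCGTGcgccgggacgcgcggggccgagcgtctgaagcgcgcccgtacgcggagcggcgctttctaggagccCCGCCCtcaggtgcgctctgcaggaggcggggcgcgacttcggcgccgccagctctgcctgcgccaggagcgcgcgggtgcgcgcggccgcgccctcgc
ABCA6: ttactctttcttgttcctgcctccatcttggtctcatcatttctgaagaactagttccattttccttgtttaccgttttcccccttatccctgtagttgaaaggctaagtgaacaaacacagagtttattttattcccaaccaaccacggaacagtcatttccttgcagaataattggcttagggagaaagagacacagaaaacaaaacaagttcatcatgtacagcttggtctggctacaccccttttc

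ABCA1 held the DR4 repeat, from 69 to 55 bases before the start, together with 3 Sp1 sites, 1 E-box and 1 TATA box. It was the 1 gene with this repeat among the 49 promoter entries of the 32 members that had one, and 0.53% of all 35116 promoters of the same length held it. The shown ABCG2 promoter held 1 E-box, 2 Sp1 sites and 2 dioxin response cores, and that of ABCD4 held 1 antioxidant response core and 1 Sp1 site. The E-box was present in 6.34% of all promoters, the Sp1 site in 42.6%, the antioxidant core in 10.9%, the dioxin core in 32.2% and the TATA box in 10.7%. ABCA5 and ABCA6 differed in base composition, at 79.2% and 40.8% G and C. ABCA5 held 1 Sp1 site and 1 dioxin core, and ABCA6 held none of the 6 motifs. A match is a run of letters and was not tested as a binding site.

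Values are log2 signal as deposited, and a difference is Y42C minus wild-type on that scale. The files come with no detection calls. A gene therefore counted as above the minimum where its signal in either line came up to the 95th percentile of 348 olfactory receptor genes, which this tissue is not thought to use: 5.17 on the wild-type and 5.14 on the Y42C array. Of the 39 members, 24 were above the minimum, 19 of them on both arrays, beside 11802 and 10946 of all 17687 genes. ABCA5, ABCA6 and ABCA8 passed only on the wild-type array, and ABCB4 and ABCC5 only on the Y42C array. For these 5 a fold is given only against the minimum, if at all, and their difference follows in part from how they passed. ABCB4 differed by 0.0 with its wild-type value set to the minimum. Counts past a fold and medians use the deposited values of all 5. As a check of the line, 7 of 8 epithelial markers were above the minimum, with KRT8 at 17.96 and 17.94, CLDN4 at 8.80 and 9.49 and CLDN7 2.46-fold lower in the Y42C array (10.61 and 9.31), and CDH1 was below it on both arrays (3.92 and 3.86). Of the gastric markers 4 of 9 were above it, with MUC5AC, MUC6, TFF1, TFF2 and GKN1 below on both. CLDN18 (5.48 and 6.05), GATA4 (7.17 and 7.09) and GATA6 (9.15 and 9.25) were above it on both arrays. ANXA10 (3.78 and 5.55) was above it only on the Y42C array. Markers of other cell types were above it for 4 of 5 leukocyte, 3 of 6 fibroblast or endothelial and 3 of 4 hepatocyte genes. With 11802 of all 17687 genes above it, these marker counts alone tell little. CD68 was at 10.66 and 10.15, PTPRC was at 4.61 and 5.39, and the hepatocyte marker ALB at 4.85 and 5.41. Of the other hepatocyte markers above it, TTR was at 4.87 and 5.27, and SERPINA1 ran the other way at 5.9 and 4.95. The leukocyte marker CD14 was 3.43-fold lower in the Y42C array (7.45 and 5.67), and CD3E was at 4.70 and 5.67. The part of these markers in the results was not tested.

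**Figure D1:**
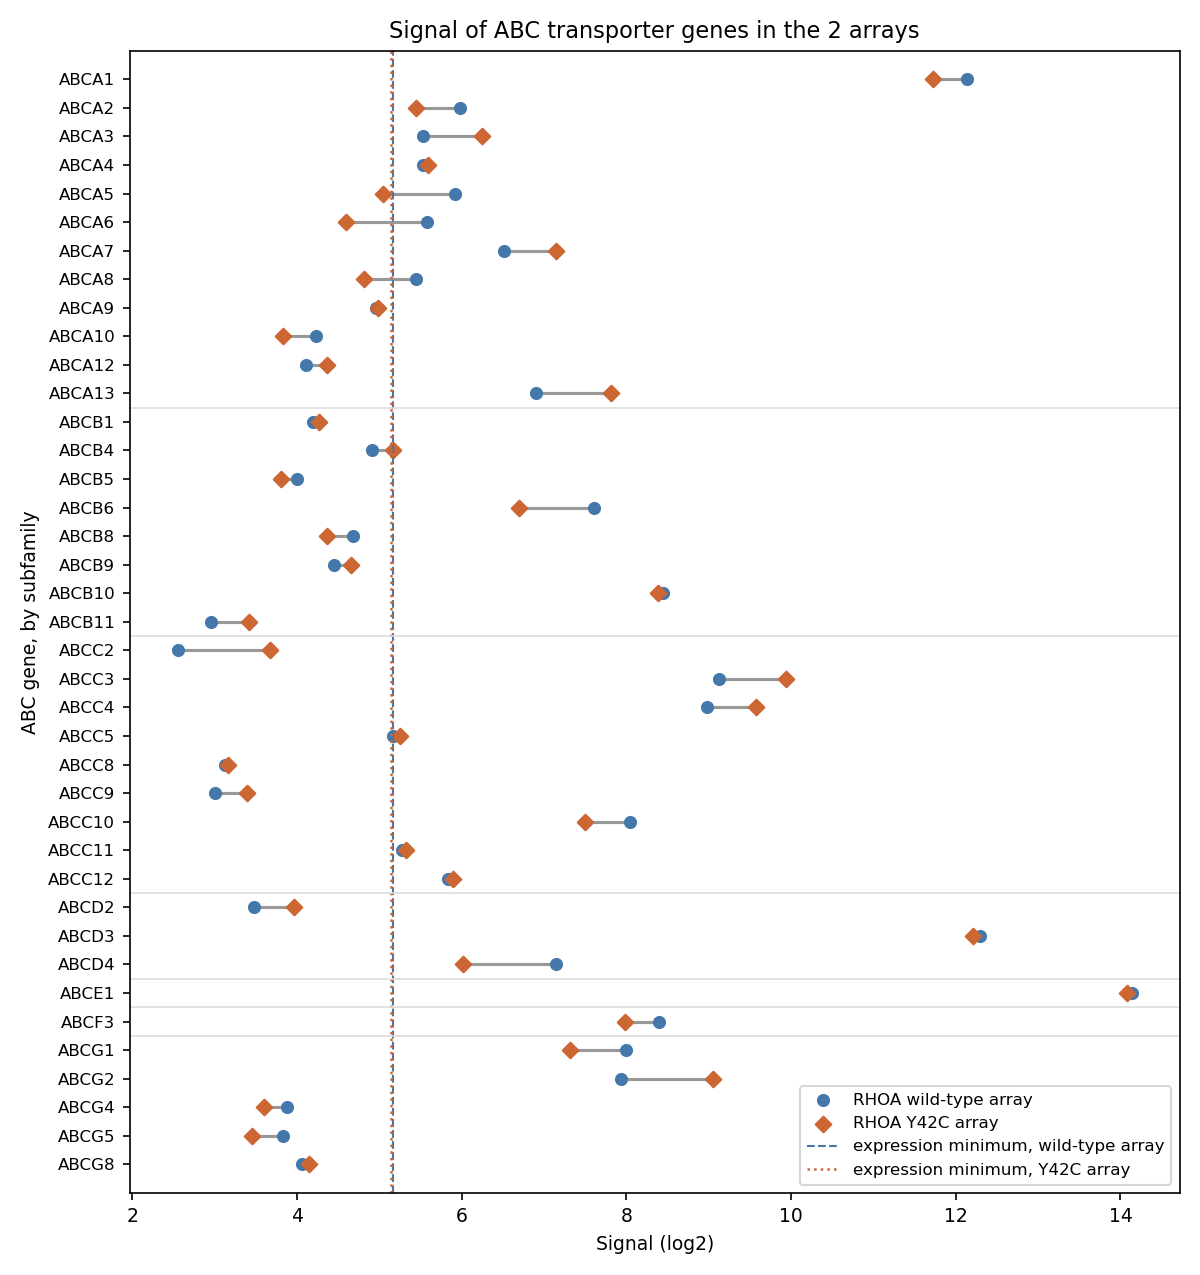
Log2 signal (horizontal axis) of the 39 ABC genes by subfamily, with circles for the wild-type array and diamonds for the Y42C array, 1 array each; the vertical lines are the expression minimums, 5.17 and 5.14. ABCG2 and ABCD4 have both points above the minimum and lie over 1 unit apart in opposite directions, and 15 genes have both points below it.

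At least 2-fold apart were 1 member higher in the Y42C array, ABCG2, and 1 lower, ABCD4. This is 4.17% of the 24 members in each direction, beside 7.46% of the 11802 genes above the minimum that were 2-fold higher and 9.80% that were 2-fold lower. At 1.5-fold, 6 members were higher and 6 lower, 25% each, against 17.8% and 23.4% of all genes. Among the 19 members above the minimum on both arrays, 6 were at least 1.5-fold higher (31.6%) and 3 lower (15.8%), against 16.6% and 22.9% of the genes so measured. The median difference of the 24 was -0.06 and that of all genes -0.07. Their median absolute difference was 0.57, and 0.48 for all genes. The 2-fold shares were below those of all genes. At 1.5-fold the share higher among the 19 was above that of all genes and the share lower was below it. No test of this was possible with 1 array per line, and the contrast rests on members near the threshold. With a constant of 16 added to damp low values, ABCC4, ABCA7 and ABCA3 fell under 1.5-fold higher (0.58, 0.55 and 0.57). ABCD4, ABCB6 and ABCG1 stayed past 1.5-fold lower (-0.97, -0.82 and -0.64). In bulk RNA, fewer cells that use a gene and less RNA per cell cannot be told apart.

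A second yardstick was the 500 genes nearest to a member in mean signal. Among the 19 members above the minimum on both arrays, the share of these genes lying at least as far from 0 as the member was lowest for ABCD4 (14.2%) and ABCG2 (16.8%), followed by ABCA13 (23.0%) and ABCB6 (23.4%). The median share over the 19 was 43.0%.

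**Figure D2:**
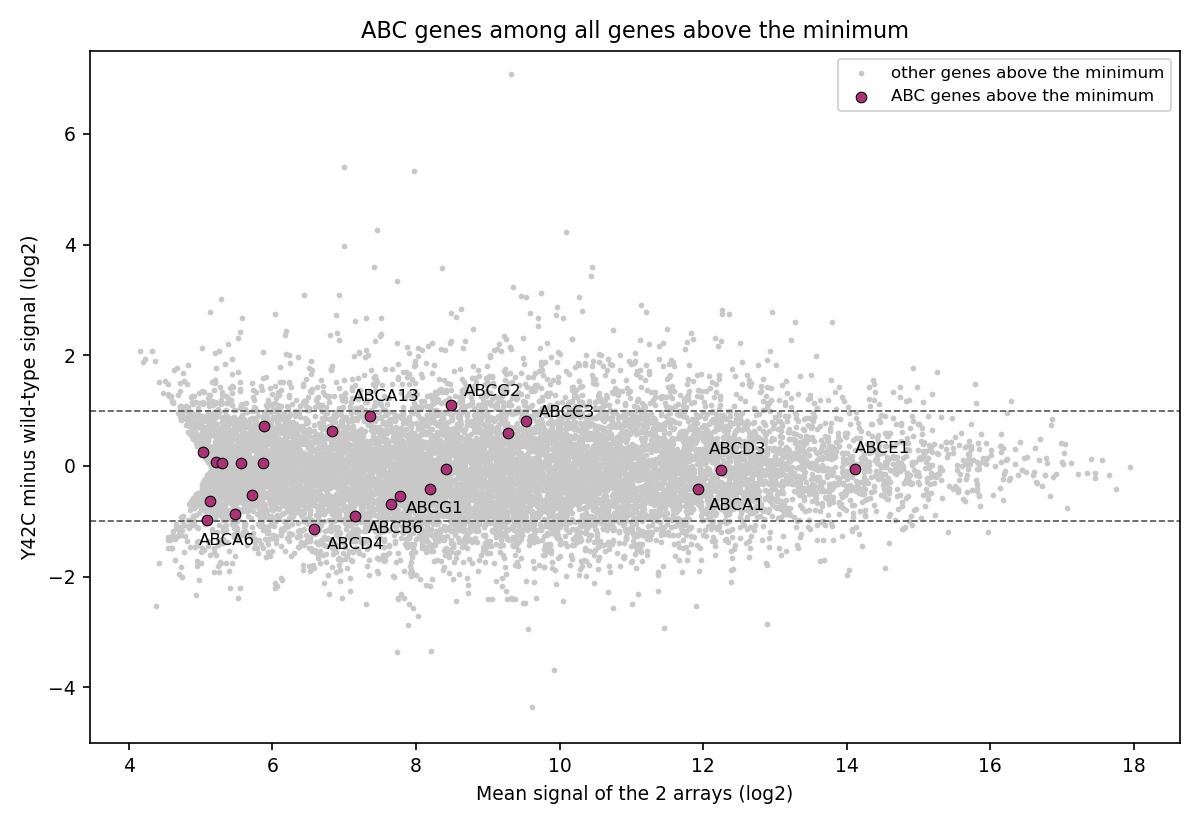
Y42C minus wild-type difference (log2, vertical axis) against the mean signal of the 2 arrays (log2, horizontal axis) for all 11802 genes above the minimum, with the 24 ABC genes as large points and dashed lines at 2-fold. The ABC genes lie inside the cloud, between -1.13 for ABCD4 and 1.11 for ABCG2.

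Among the drug and conjugate exporters, ABCG2, ABCC3 and ABCC4 were higher in the Y42C array. ABCG2, the breast cancer resistance protein that exports drugs, urate and porphyrins, had signals of 7.94 and 9.05, wild-type first here and below, and was 2.16-fold higher. It lay well over the minimum in both lines. ABCC3, which carries glucuronide conjugates and bile salts across the basolateral membrane, stood at 9.13 and 9.94, 1.75-fold higher. ABCC4, an exporter of cyclic nucleotides, prostaglandins and nucleotide analogues, stood at 8.98 and 9.58, 1.52-fold higher. ABCC10, which exports taxanes in transfected cells, ran the other way at 8.05 and 7.5, a difference of -0.55.

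The other members of this class gave no difference that can be read. ABCC5, an exporter of cyclic GMP and nucleotide analogues, was at 5.17 and 5.25, just short of the unrounded minimum in the wild-type array and just over it in the other. ABCC11, whose product acts in apocrine glands, was at 5.28 and 5.33. ABCB1, the P-glycoprotein that exports a wide range of drugs, was below the minimum in both lines (4.20 and 4.27), and so was its relative ABCB5 (4.0 and 3.81). ABCC2, which exports conjugates across the apical membrane, had signals of 2.55 and 3.67. Its difference of 1.12 exceeds that of ABCG2, but both values are below the minimum, so no fold is given. Of 9 class members, 6 were above the minimum, with 5 higher and 1 lower, beside 45.2% of all genes that were higher, and their median was 0.34. The 5 include ABCC11 and ABCC5, which differed by 0.05 and 0.08. Over the 5 members above the minimum in both arrays it was 0.60, and over all 9 with no minimum 0.08.

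Lipid and sterol exporters fell on both sides of 0. Of 11 above the minimum, 0 were 2-fold apart, beside 17.3% of all genes in either direction. ABCA1, which loads cholesterol and phospholipid onto apolipoprotein A-I, had signals of 12.14 and 11.72, a difference of -0.42. ABCG1, which passes cholesterol on to lipoprotein particles, had 8.0 and 7.31, 1.61-fold lower in the Y42C array. Both genes are known liver X receptor targets and both lay far over the minimum. For ABCA1, 58.4% of genes of like level were at least as far from 0, and for ABCG1 33.2%. ABCG4, the close relative of ABCG1, was below the minimum (3.88 and 3.6), as were the partners ABCG5 (3.83 and 3.46) and ABCG8 (4.06 and 4.15), which together export sterols from gut and liver cells.

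Higher in the Y42C array were ABCA13, ABCA3 and ABCA7. ABCA13, the longest protein of the family and one whose substrate is less settled, had signals of 6.90 and 7.81, 1.88-fold higher. ABCA3, which fills the lamellar bodies of lung surfactant, had 5.53 and 6.25, 1.65-fold, with the wild-type value only 0.36 over the minimum. ABCA7, a phospholipid transporter related to ABCA1, had 6.51 and 7.14, 1.55-fold. Its sign was opposite to that of ABCA1, but many genes of like level were at least as far from 0 (39.8% for ABCA7 and 58.4% for ABCA1). ABCA2, a lysosomal and endosomal lipid transporter prominent in oligodendrocytes, was at 5.98 and 5.45, a difference of -0.53. ABCA4, the retinal transporter of photoreceptors, was at 5.53 and 5.59, close to the minimum in both lines. ABCB4, the phosphatidylcholine floppase of bile, was at 4.91 and 5.17, and ABCA12, which fills the lamellar granules of skin, at 4.11 and 4.37. ABCB11, the bile salt export pump, was at 2.96 and 3.42.

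The median of the 11 lipid exporters was -0.42, but it was 0.06 over the 7 members above the minimum in both arrays and 0.11 over the 4 above the median of each array, so the class had no stable direction. Leaving out members below the minimum on 1 array removes ABCB4 and 3 members of 1 cluster. On chromosome 17 the order of protein-coding genes is ABCA8, ABCA9, ABCA6, ABCA10 and ABCA5, a cluster of ABCA6-like lipid transporters. ABCA6 had signals of 5.58 and 4.60, at least 1.36-fold lower in the Y42C array. ABCA5 had 5.92 and 5.05, at least 1.72-fold lower, and ABCA8 5.44 and 4.81, at least 1.23-fold lower. In the wild-type array these 3 stood over the minimum by 0.75 or less, and in the Y42C array none of the 5 reached it. ABCA10 (4.23 and 3.83) was below it in both, and ABCA9 (4.96 and 4.98) was below it and differed by 0.02. The cluster arose by tandem duplication, and probes shared between its members were not tested.

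**Figure D3:**
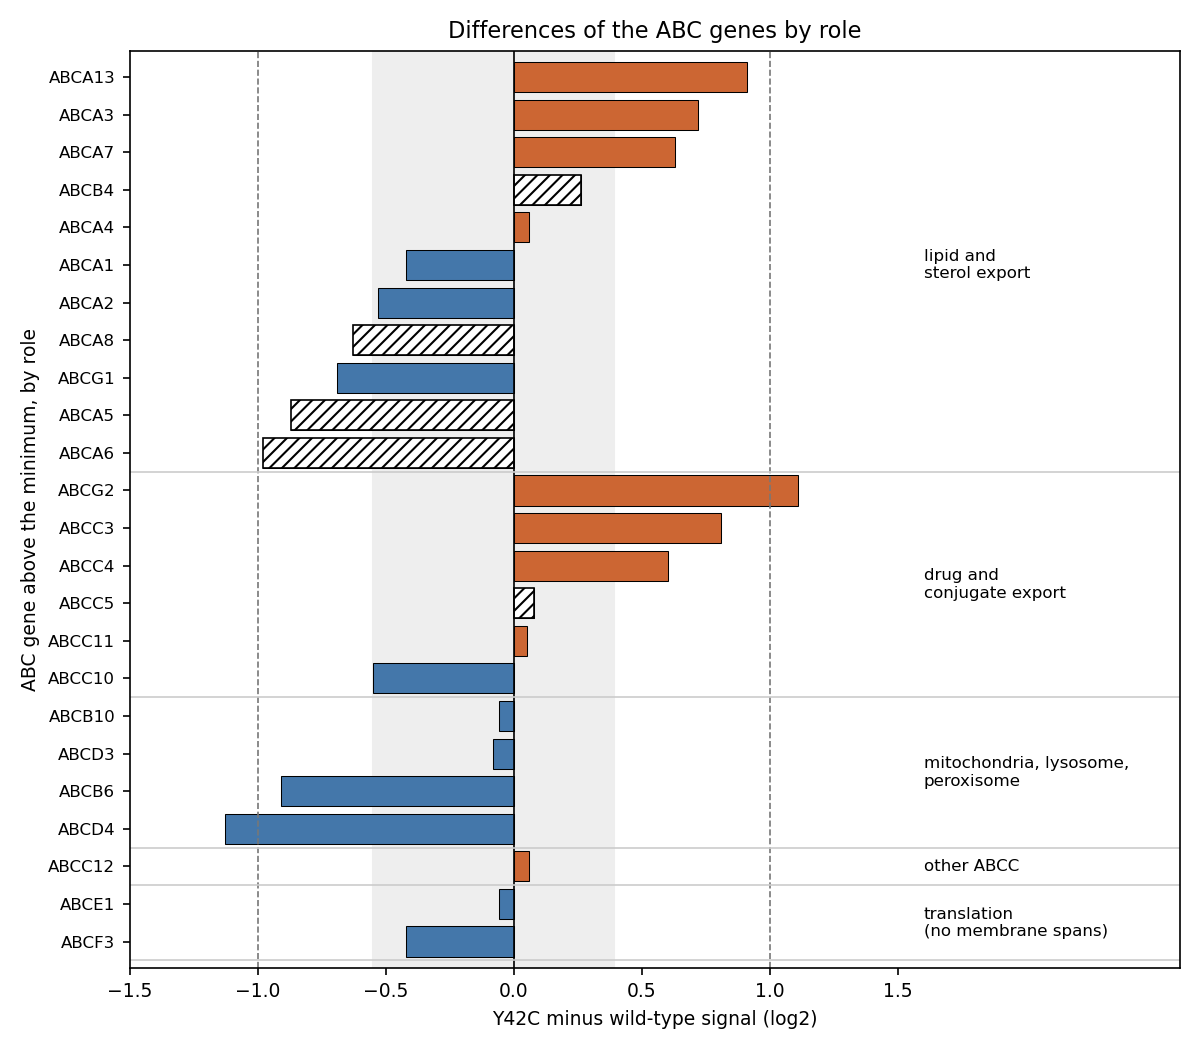
Y42C minus wild-type difference (log2, horizontal axis) of the 24 ABC genes above the minimum, grouped by role, 1 array a line; hatched bars are genes below the minimum on 1 array, dashed lines are 2-fold and the grey band is the interquartile range of all genes, -0.55 to 0.39. Drug exporters ABCG2, ABCC3 and ABCC4 extend to the right and ABCC10 to the left. The organelle members ABCB6 and ABCD4 extend to the left. Lipid exporters extend to both sides, with ABCA13 (0.91) on the right and ABCG1 (-0.69) on the left.

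Members of internal membranes were level or lower. ABCD4, which works with LMBRD1 to release vitamin B12 from lysosomes, had signals of 7.15 and 6.02, 2.19-fold lower in the Y42C array. With a constant of 16 added to damp low values its difference was -0.97, just short of 2-fold. ABCB6, a porphyrin transporter of mitochondria and other membranes that also carries the Langereis blood group, had 7.61 and 6.70, 1.88-fold lower. ABCD3, the main peroxisomal membrane transporter for branched-chain and bile acid intermediates, was the same in both lines to within 0.08 (12.29 and 12.21). ABCB10, a mitochondrial inner membrane protein needed for haem synthesis, was at 8.45 and 8.39. All 4 of these members above the minimum had a difference below 0, with a median of -0.50, beside 54.2% of all genes and a median of -0.07. For ABCB10 and ABCD3 it was only -0.06 and -0.08. ABCB8 (4.68 and 4.36) of mitochondria, ABCB9 (4.45 and 4.66), a lysosomal peptide transporter, and ABCD2 (3.48 and 3.96), a peroxisomal fatty acid transporter, were below the minimum in both lines, and the latter 2 had the higher value in the Y42C array.

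The members without membrane spans differed little. ABCE1, which splits ribosomes after translation ends, had signals of 14.14 and 14.08. ABCF3, which is linked to antiviral defence and translation, had 8.40 and 7.98, a difference of -0.42. Of the remaining ABCC genes, ABCC12 was at 5.84 and 5.90. The sulfonylurea receptors ABCC8 (3.13 and 3.16) and ABCC9 (3.0 and 3.39), which are channel regulators and not exporters, were below the minimum.

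By subfamily, the medians over members above the minimum were -0.42 for 9 ABCA genes, -0.06 for 3 ABCB, 0.07 for 6 ABCC, -0.60 for 2 ABCD and 0.21 for 2 ABCG genes. The ABCA median was 0.34 over the 6 members above the minimum in both arrays, and the ABCG median was -0.28 over all 5 members, so neither has a stable sign. The ABCB median was -0.48 over the 2 genes above the minimum in both arrays and 0.07 with a trend on level removed, so its sign is not stable either. ABCC and ABCD kept their sign under the alternatives tried but moved with the minimum, to 0.60 for ABCC with the array median as minimum and -0.08 for ABCD over all 3 genes. The ABCD and ABCG medians each average 1 gene past 2-fold and 1 that is not. In ABCC, 8 of all 9 members had a higher value in the Y42C array, ABCC10 being the exception, but 3 of the 8 were below the minimum and 3 more differed by 0.08 or less.

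Genes of sterol sensing and efflux, only some of them regulators of the sterol exporters, were described from a list. SREBF2, the transcription factor of cholesterol synthesis, had signals of 8.66 and 10.80, 4.41-fold higher in the Y42C array, and SREBF1, that of fatty acid synthesis, 11.16 and 12.31, 2.22-fold. NPC1, which exports cholesterol from lysosomes, had 11.25 and 12.17, a difference of 0.92. NR1H3, the liver X receptor alpha that drives ABCA1 and ABCG1, was the same in both lines (7.35 and 7.35), and its partner RXRB lay at 9.36 and 9.75. The other liver X receptor gene, NR1H2, and the partner RXRA were not analysed here. APOE, an acceptor of exported cholesterol, differed by -0.42 (8.58 and 8.16). Targets of the liver X receptors were not examined as a set. Of 14 listed genes of sterol sensing and efflux, 9 were named here, all above the minimum. Of these 9, 2 were 2-fold higher (22.2%) and 0 lower, beside 7.46% and 9.80% of all genes, and the median was 0.39. This list and the partner lists below were chosen with earlier results of these data known, so such shares describe the lists only.

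Introns of SREBF2 and SREBF1 host the microRNAs miR-33a and miR-33b, which are known to repress ABCA1. In the RefSeq tables (GRCh38.p14) both lie within the span of their host, on chromosomes 22 and 17. Their mature 5p arms are shown with the seed, bases 2 to 8, in capitals, because both share it.
hsa-miR-33a-5p: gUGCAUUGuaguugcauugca
hsa-miR-33b-5p: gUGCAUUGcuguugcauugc

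The 2 hosts were higher in the Y42C array by 2.14 and 1.15, and ABCA1 was lower by an amount inside the interquartile range of all genes (-0.55 to 0.39). The mature microRNAs were not measured by these values, and their part in the ABCA1 level was not tested.

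Genes of xenobiotic and oxidant response, only some of which regulate drug exporters, did not move as one. CYP1A1, the textbook target of the aryl hydrocarbon receptor, had signals of 5.11 and 6.36. It was 2.28-fold higher in the Y42C array with its wild-type value set to the minimum. The receptor AHR itself differed by 0.30 (13.03 and 13.33) and its partner ARNT by -0.70. NFE2L2, the oxidant response factor, lay at 10.76 and 11.08. The glutathione genes GSTP1 (14.03 and 13.22), GSR (12.29 and 11.64), GSS (9.56 and 9.15) and GCLC (10.22 and 9.96) were lower by less than 2-fold. Of 11 genes above the minimum, 1 was 2-fold higher (9.09%) and 0 lower, beside 7.46% and 9.80% of all genes. The median was -0.26.

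Among proteins that bind or serve ABC members, PDZK1, a scaffold that anchors ABCC2 and ABCC4 at the apical membrane, had signals of 5.39 and 6.90, 2.85-fold higher in the Y42C array. LMBRD1, the lysosomal partner of ABCD4, differed by 0.58 (11.37 and 11.95), opposite to ABCD4. PEX3, which places ABCD proteins in the peroxisome with PEX19, differed by -0.99 (11.65 and 10.66), and PEX19 by 0.03. In haem synthesis, the iron importer SLC25A37, a partner of ABCB10, differed by 0.81 (6.56 and 7.37) and FECH, the enzyme that inserts iron, by -0.66 (9.18 and 8.52). Of 10 partner genes 1 was 2-fold higher (10.0%) and 0 lower, beside 7.46% and 9.80% of all genes. The median was 0.22.

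The carriers of the SLCO and SLC47 families, which move drugs and anions beside the ABC exporters, had 5 genes above the minimum. Of these, 0 were 2-fold apart, beside 17.3% of all genes in either direction. SLCO2A1, a prostaglandin carrier, differed by -0.67 and SLCO3A1 by 0.51, and the median of the 5 was -0.49. Of 6 translation partners of ABCE1, 0 were 2-fold apart, beside the same 17.3% of all genes. The initiation factor subunit EIF2S3 differed by 0.84 and the ribosome rescue factor HBS1L by -0.59, and the median of the 6 was -0.06. Family members under other names were TAP1 (6.86 and 6.89) and TAP2 (8.34 and 7.72), the subunits of the peptide transporter for antigen presentation, and CFTR (3.41 and 3.04), the chloride channel, which was below the minimum. Over the whole list 43 of 51 genes named here were above the minimum. Of these, 4 were 2-fold higher (9.30%) and 0 lower, beside 7.46% and 9.80% of all genes, and the median was 0.03. The count higher was 3 with both arrays above the minimum, with the 99th percentile as minimum and with a constant of 16 added. CYP1A1 passed the minimum only on the Y42C array.

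**Figure D4:**
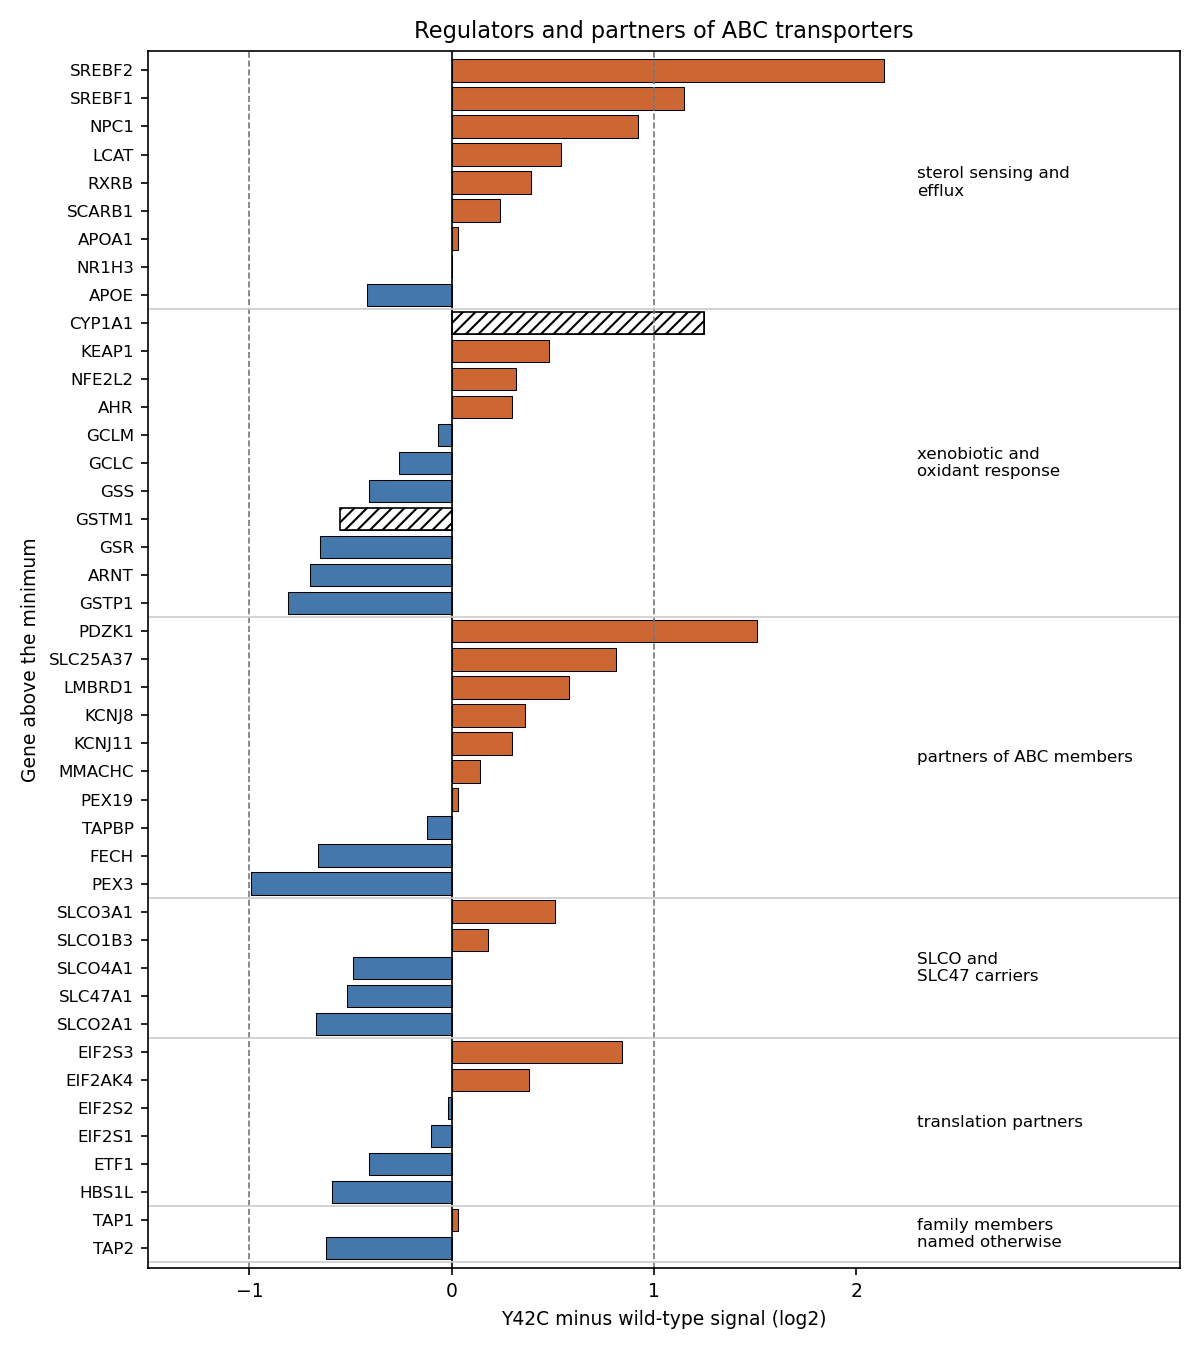
Y42C minus wild-type difference (log2, horizontal axis) of the 43 listed regulators, partners and related genes above the minimum, by list, 1 array a line. Hatched bars are genes below the minimum on 1 array, and dashed lines are 2-fold. SREBF2, SREBF1, CYP1A1 and PDZK1 pass 2-fold on the higher side, and no gene does on the lower side.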

How the data were processed

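The deposited table gives 1 log2 value for each of 21448 probe sets on each of 2 arrays, between 2.23 and 18.16. No source used here states the log base. It was taken as 2 from this range, so every fold assumes it. The authors used Affymetrix Expression Console, per the submitters' processing notes; no source used here gives its version, background correction, summary or normalization. Values were used as deposited, with array medians of 6.42 (wild-type) and 6.36 (Y42C). The platform annotation gave 1 symbol for 17709 probe sets, all matched by Entrez identifier, and 3739 are unnamed here. Probe sets of 1 gene were averaged, giving 17687 genes.

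With 1 array per line, differences were taken without a test. Scripts were tested on simulated data. The members, role lists, partner lists and markers were chosen with earlier results of these data known. All members above the minimum may be named with both values, those past 2-fold first; partners are named where past 2-fold or to illustrate a count, some after their values were seen. Of 64 listed partner genes, 51 were named here. The alternatives were centring, quantile normalization, lowess (span 0.3), a constant of 16, the brightest probe set, other minimums and thresholds. The work was done in Python 3.11.15 with NumPy 2.4.6, pandas 2.3.3, matplotlib 3.10.9 and statsmodels 0.14.6.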

Additional observations from a re-analysis of the deposited data

How the results depend on the processing

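With 1 array per line there is no replicate to leave out, and arrays limit precision by their number and by signal over background. No paired analysis was possible because each group has 1 sample. A median is called moved when it shifts by more than 0.15, the largest gap between the sorted values of the arrays. The settings that could move ABCG2 and ABCD4 were centring, quantile normalization, lowess and a constant of 16. ABCG2 stayed at least 2-fold higher under all of them (1.06 to 1.24). ABCD4 stayed at least 2-fold lower under the first 3 (-1.03 to -1.08), with -0.97 once the constant was added, which left 0 members 2-fold lower. Quantile normalization and removal of a trend on level each gave 2 members higher and 2 lower, adding ABCA13 (1.0 and 1.05) and ABCA6 (-1.01 and -1.04), whose Y42C value is below the minimum and which differed by -0.44 with such values set to it. With no minimum 2 were higher, ABCC2 being the other one. At 1.5-fold 6 were higher and 6 lower, and at 4-fold 0 and 0.

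Medians depended most on the minimum. That of all members was -0.25 with the 99th percentile as minimum. For drug exporters it was 0.70 with the 99th percentile or the array median, 0.60 with both arrays above the minimum and 0.08 with none. For lipid exporters it was -0.20 with the 90th percentile, -0.13 with no minimum, and turned to 0.11 with the array median and 0.06 with both arrays above the minimum; for ABCA the same settings gave -0.20, -0.19, 0.63 and 0.34. ABCB stood at -0.48 and ABCC at 0.60 with the 99th percentile or the array median, ABCB also with both arrays above the minimum. With no minimum ABCD stood at -0.08 and ABCG turned to -0.28. The partner list had 7 genes higher (16.3%) and 8 lower (18.6%) at 1.5-fold, beside 17.8% and 23.4% of all genes. At 4-fold it had 1 higher and 0 lower, beside 1.0% and 0.58% of all genes. Leaving out settings that cannot act on a result, as each member has 1 probe set, 15 of 91 median values under an alternative moved and 5 reversed, and 11 of 101 values of single members moved.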
